A study of Mus musculus with 2 samples.

Results

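The unfolded protein response and protein-folding machinery of the endoplasmic reticulum (ER) was followed as a module of 36 genes in single cells of mouse pancreatic islets. The members were taken by gene symbol from the count tables of both libraries, and all 36 had a row in each, out of 33038 genes listed in either. By role they were 11 chaperones and co-chaperones, 5 genes of disulfide bond formation, 9 sensors and transcription factors, 7 genes of ER-associated degradation and 4 genes of translocation and the ER membrane. Cells were grouped by their hormone transcripts and not by the members, so no value of a member took part in forming a group.

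The islets came from control C57BL/6J mice of 8 weeks, were freed with collagenase, picked by hand and dissociated with trypsin and EDTA. RevGel-seq links each cell to a barcoded bead and separates the pairs in a reversible hydrogel before lysis. The 2 libraries are technical replicates of 1 islet preparation, so each test below measures the spread between preparations of the same cells and not between animals. All cells share the same strain, age and control state, and the groups compared were formed from the cells themselves.

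Every cell that secretes protein hormones passes them through the ER. The chaperones BiP (Hspa5) and GRP94 (Hsp90b1) hold nascent chains, calnexin and calreticulin fold glycoproteins, and protein disulfide isomerases with their oxidase set the disulfide bonds that proinsulin needs. When unfolded protein builds up, the sensors IRE1 (Ern1), PERK (Eif2ak3) and ATF6 act through XBP1, ATF4 and cleaved ATF6 to raise folding and degradation genes, which is the unfolded protein response. The pancreatic beta cell is a textbook case, since loss of PERK or of WFS1 causes diabetes.

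A cell was counted for insulin (Ins1 and Ins2 together), Gcg (glucagon), Sst (somatostatin) or Ppy (pancreatic polypeptide) when the hormone reached 1% of its unique molecular identifiers (UMIs, 1 per captured transcript). Of 1483 cells (735 in library 1 and 748 in library 2, with 4704 to 177513 UMIs each and 0 shared barcodes), 1454 fell into 8 groups. Insulin-only cells numbered 182 in library 1 and 190 in library 2, Gcg-only cells 182 and 174, Sst-only cells 35 and 23, and Ppy-only cells 54 and 68. A further 65 and 86 cells carried Gcg and Ppy, 77 and 71 carried Sst and Ppy, 37 and 27 carried insulin with another hormone, and 91 and 92 reached the threshold for no hormone. Cells with several hormones may also be 2 cells under 1 barcode, which was not tested.

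Markers that took no part in the grouping were read as a check. The 7 beta cell markers summed to 54310 and 55880 CPM (UMIs per 1000000 UMIs other than hormones, for marker sums without TMM scaling) in insulin-only cells of library 1 and 2, and to 757 and 576 CPM in Gcg-only cells. Sst-only cells stood at 15250 and 15540 CPM on the same list, and 11431 of their 11575 UMIs on it were Iapp. The 3 gamma cell markers did not set Ppy-only cells apart, at 1219 and 1294 CPM against 1182 and 1374 CPM in Sst-only cells. Cells without a hormone carried endothelial markers at 4227 and 5337 CPM and leukocyte markers at 3149 and 3008 CPM. They also held macrophage markers at 746 and 1055 CPM, stellate markers at 1899 and 480 CPM and ductal markers at 1681 and 567 CPM. The stellate and ductal sums thus differed between the libraries, and Ppy-only cells had ductal markers at 597 and 535 CPM.

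The promoters of the members were searched for elements of the response. The ER stress response element, to which ATF6 and NF-Y bind, reads CCAAT, 9 bases of any kind, then CCACG. It was searched on both strands in the RefSeq promoter windows of 250 bases before and 50 bases after each gene start (GRCm38.p6). Of the 36 members 32 had a window, Ero1lb under its newer symbol Ero1b. The element was present in 9 of these 32, while 39 of 32851 windows of all genes held it, a share of 0.119%. The second form of the element, ATTGG, 1 base, CCACG, was present in Dnajb11 and Herpud1, against 0.0365% of all windows. The matches that lie before the start are printed 5′ to 3′ on the gene's strand, with the fixed letters of the element in capitals. Where the element lies on the opposite strand the capitals read CGTGG and ATTGG.
Hspa5, chr2:34772013-34772055, plus strand: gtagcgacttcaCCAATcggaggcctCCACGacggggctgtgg
Hsp90b1, chr10:86705626-86705668, minus strand: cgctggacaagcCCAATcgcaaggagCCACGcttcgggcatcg
Hsp90b1, chr10:86705521-86705563, minus strand: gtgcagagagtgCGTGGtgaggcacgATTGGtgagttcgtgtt
Calr, chr8:84847063-84847105, minus strand: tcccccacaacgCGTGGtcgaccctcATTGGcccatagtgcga
Canx, chr11:50325788-50325830, minus strand: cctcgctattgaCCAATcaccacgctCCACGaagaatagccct
Dnajc3, chr14:118937815-118937857, plus strand: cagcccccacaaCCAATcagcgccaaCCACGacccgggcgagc
Creld2, chr15:88819508-88819550, plus strand: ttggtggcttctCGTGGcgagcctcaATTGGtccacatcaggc
Pdia6, chr12:17266479-17266521, plus strand: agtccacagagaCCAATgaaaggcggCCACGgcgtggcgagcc
Ero1lb, chr13:12565670-12565712, plus strand: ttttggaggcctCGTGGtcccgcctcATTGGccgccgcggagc
Syvn1, chr19:6046520-6046562, plus strand: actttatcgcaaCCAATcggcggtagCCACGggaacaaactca
Herpud1, chr8:94386365-94386399, plus strand: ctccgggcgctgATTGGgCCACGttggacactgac
Of these genes 6 are chaperones or co-chaperones (Hspa5, Hsp90b1, Calr, Canx, Dnajc3, Creld2), 2 act in disulfide formation (Pdia6, Ero1lb) and 2 in degradation (Syvn1, Herpud1). In Hspa5 the element spans bases 65 to 47 before the start and in Syvn1 bases 44 to 26, whereas in Ero1lb it lies further out, at bases 201 to 183. The C/EBP-ATF element of ATF4 targets (TGATGNAA) was found in Herpud1 and Trib3, against 3.97% of all windows, and the XBP1 element TGACGTGG in 0 members, against 0.676%. A match describes letters in this window and not a bound site, and Hyou1, Manf, Atf6 and Derl1 were not searched.

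Summed over the module, insulin-only cells had the largest median share of the members among transcripts other than hormones. The share among all transcripts, hormones included, was not counted. The 36 members made up 1.96% of the UMIs other than hormones in the median insulin-only cell of library 1 and 1.97% in library 2. In the median Gcg-only cell they made up 1.09% and 1.11%, in Sst-only cells 1.24% and 1.15%, and in Ppy-only cells 1.34% and 1.35%. The medians of both libraries lay close together in each group, and the insulin-only medians stood above those of the other 3 single-hormone groups. Single cells overlapped, since insulin-only cells ranged from 0.718% to 4.005% over both libraries and Gcg-only cells from 0.246% to 2.19%. Cells with Gcg and Ppy had medians of 1.32% and 1.24%, cells with Sst and Ppy 1.25% and 1.23%, cells with insulin and another hormone 1.74% and 1.61%, and cells without a hormone 0.771% and 0.713%.

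**Figure D1:**
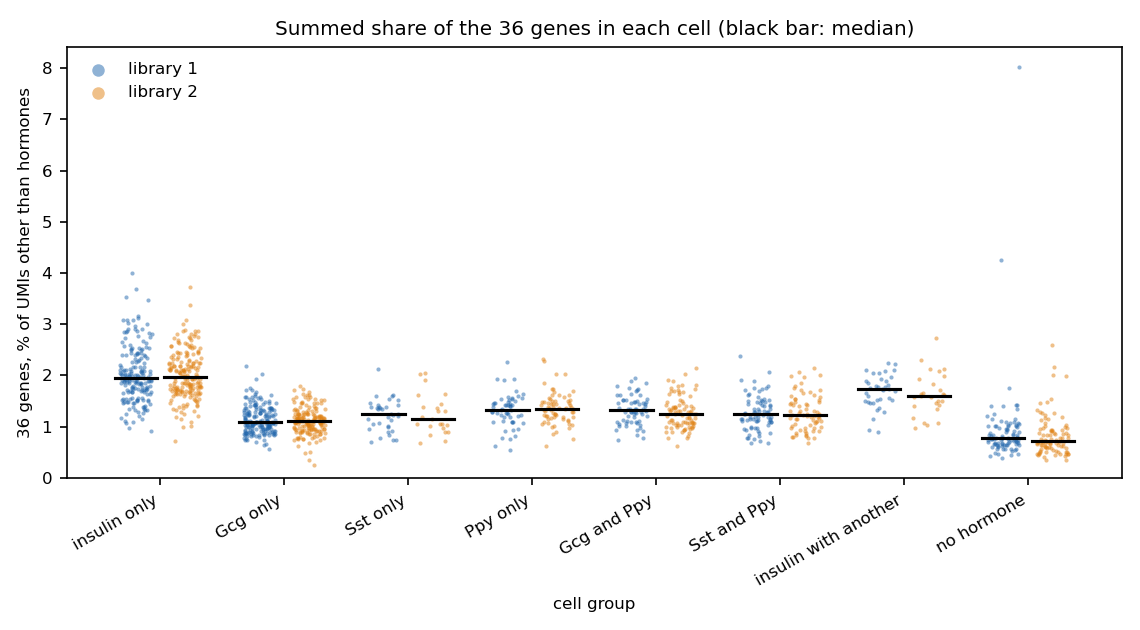
Share of the 36 genes in the UMIs other than hormones of each cell (vertical axis, %), by cell group (horizontal axis) and library (colour); each point is 1 cell and black bars are medians. Insulin-only cells sit highest, with medians of 1.96% and 1.97%, and 1 cell without a hormone in library 1 reaches 8.02%.

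For tests, UMIs were summed over the cells of a group in a library, the 5 hormone genes were removed, and the 16 sums were compared with edgeR's quasi-likelihood test, with the library as a block and Benjamini-Hochberg adjustment over 14528 genes. Of the members 35 were tested, and Trib3, a pseudokinase induced by ATF4 and CHOP, failed the low-count filter, with 10 and 15 UMIs in the cells without a hormone, its highest group at 6.85 and 7.58 CPM. Levels of the members are CPM with TMM scaling. UMI counts mark transcript ends, so levels of different genes below are not divided by length. A member is called where its adjusted p is under 0.05. Errors are approximate standard errors, taken as the size of the log2 fold change divided by the square root of the test's F statistic.

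Against Gcg-only cells, 27 of the 35 tested members were higher in insulin-only cells and 1 was lower, with a median log2 difference of 0.99 over the members and -0.01 over all genes. Of all genes 13.0% were called higher in this comparison and 12.7% lower. Against Sst-only cells, 24 members were higher and 1 lower (median 0.94), where 7.19% of all genes were higher and 7.1% lower. Against Ppy-only cells, 21 members were higher and 2 lower (median 0.64), where 10.1% of all genes were higher and 10.4% lower. The 3 comparisons share the insulin-only sums, and their values are set side by side for that reason only. In all 3, 18 of 35 members (51.4%) were called higher, as were 510 of the 14528 genes (3.51%). Both insulin-only sums lay above all 6 sums of the other single-hormone groups for 25 of the 36 members. That count was not made over all genes and so has no background, and its 25 include Trib3, which was not tested.

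These counts are relative to transcripts other than hormones. With hormone UMIs kept in the total and no TMM scaling, the median of all genes itself moved to -0.35 against Gcg-only, -0.69 against Sst-only and -0.12 against Ppy-only cells. The median hormone share was 38.9% and 41.7% in insulin-only cells of library 1 and 2, 24.2% and 24.9% in Gcg-only cells, 10.02% and 10.1% in Sst-only cells and 36.5% and 36.7% in Ppy-only cells. The members were then 23 higher and 5 lower against Gcg-only cells, 5 higher and 3 lower against Sst-only cells, and 19 higher and 3 lower against Ppy-only cells. Shares of all genes called were counted only with hormones removed and TMM scaling, here and below, so these counts have no such background. Dissociation and heat shock genes moved with the comparison too. Their 10 markers summed to 4940 and 4681 CPM in insulin-only cells, 15810 and 14930 CPM in Gcg-only cells, 11720 and 11690 CPM in Sst-only cells and 22200 and 24980 CPM in Ppy-only cells, and the part of this in the results was not tested.

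**Figure D2:**
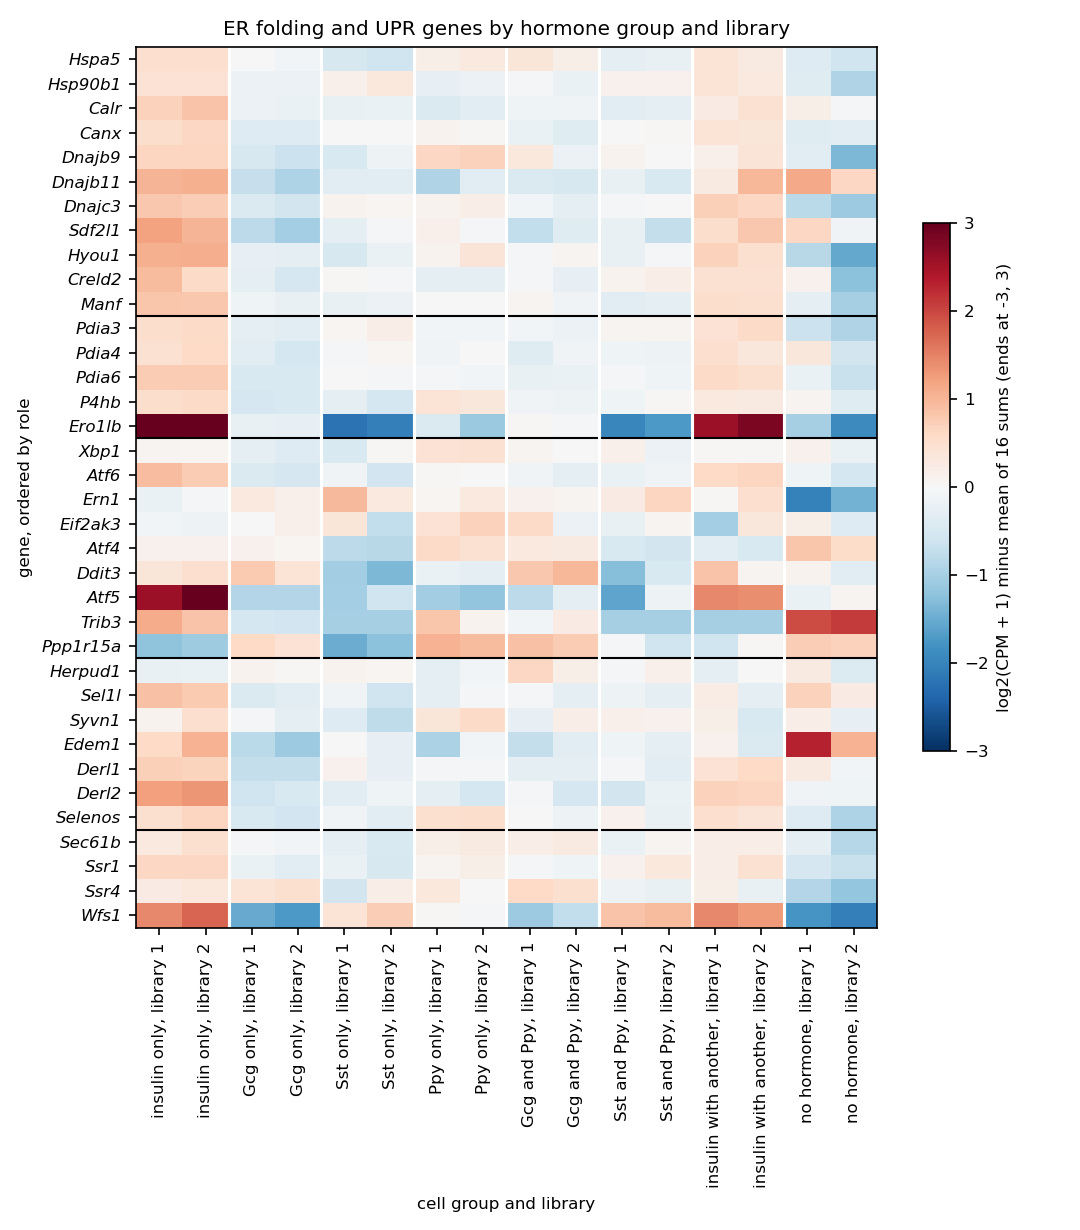
Level of each of the 36 genes (rows, ordered by role and separated by black lines) in the 8 cell groups of libraries 1 and 2 (columns), as log2(CPM + 1) minus the gene's mean over the 16 sums. Among the single-hormone groups the insulin-only columns are the reddest for 25 genes, Trib3 (not tested) included, a count not made over all genes. Ppp1r15a is lowest in insulin-only and Sst-only cells.

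Among the chaperones and co-chaperones, 11 of 11 were higher in insulin-only than in Gcg-only cells, 9 were higher than in Sst-only cells and 10 higher than in Ppy-only cells. Sdf2l1, a co-chaperone of the BiP complex that slows client aggregation, differed most against Gcg-only cells. It stood at 136 and 118 CPM in insulin-only cells of library 1 and 2, 33.1 and 28.0 CPM in Gcg-only cells, 47.1 and 56.2 CPM in Sst-only cells, and 65.0 and 55.8 CPM in Ppy-only cells. The insulin-only sums lay above those 6 others, and the log2 difference was 2.05 ± 0.21 against Gcg-only cells (adjusted p = 1.3e-06), 1.33 ± 0.27 against Sst-only (adjusted p = 0.00273) and 1.07 ± 0.21 against Ppy-only cells (adjusted p = 0.00126). In the remaining groups Sdf2l1 ran from 34.6 and 45.0 CPM in cells with Gcg and Ppy to 89.1 and 54.1 CPM in cells without a hormone, with 49.6 and 35.1 CPM in cells with Sst and Ppy and 84.2 and 102 CPM in cells with insulin and another hormone.

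Hspa5 (BiP), the central ER chaperone, was the most abundant member in insulin-only cells, at 3879 and 3888 CPM. It fell to 2687 and 2558 CPM in Gcg-only cells, 1950 and 1799 CPM in Sst-only cells and 3088 and 3342 CPM in Ppy-only cells. The differences were modest, at log2 0.57 ± 0.09, 1.05 ± 0.09 and 0.27 ± 0.09 against these groups in turn (adjusted p = 0.000153, 5.11e-07 and 0.042). The call against Ppy-only cells was lost in 5 of 11 alternatives, with adjusted p from 0.00364 to 0.353. Hsp90b1 (GRP94), which folds selected clients including insulin-like growth factors, was higher by 0.61 and 0.65 than in Gcg-only and Ppy-only cells. Against Sst-only cells its difference of 0.20 ± 0.12 was not called (adjusted p = 0.34), with 3238 and 3196 CPM against 2654 and 2952 CPM.

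The lectin chaperones that hold glycoproteins were higher in all 3 comparisons, Calr by 0.96, 0.98 and 1.15 and Canx by 0.97, 0.59 and 0.51. So were the J-domain partners of BiP Dnajb11 (1.87, 1.38 and 1.63) and Dnajc3, known as p58IPK (1.27, 0.70 and 0.63). Against Sst-only cells, with hormone UMIs kept and no TMM scaling, Canx read -0.13 and Dnajc3 -0.021. Hyou1, a nucleotide exchange factor for BiP, rose by 1.35, 1.44 and 0.82, and Manf, a secreted ER protein that binds BiP, by 0.99, 1.02 and 0.84. Manf overlaps Rbm15b on the same strand. Creld2, an ER protein with isomerase activity, was higher by 1.16 and 1.04 than in Gcg-only and Ppy-only cells, and its 0.79 against Sst-only cells was not called (adjusted p = 0.0638). Dnajb9 (ERdj4), which restrains IRE1, was higher by 1.23 and 0.98 than in Gcg-only and Sst-only cells. In Ppy-only cells, at 281 and 294 CPM, it was near the 286 and 286 CPM of insulin-only cells and was not called (log2 -0.01 ± 0.20, adjusted p = 0.988).

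**Figure D3:**
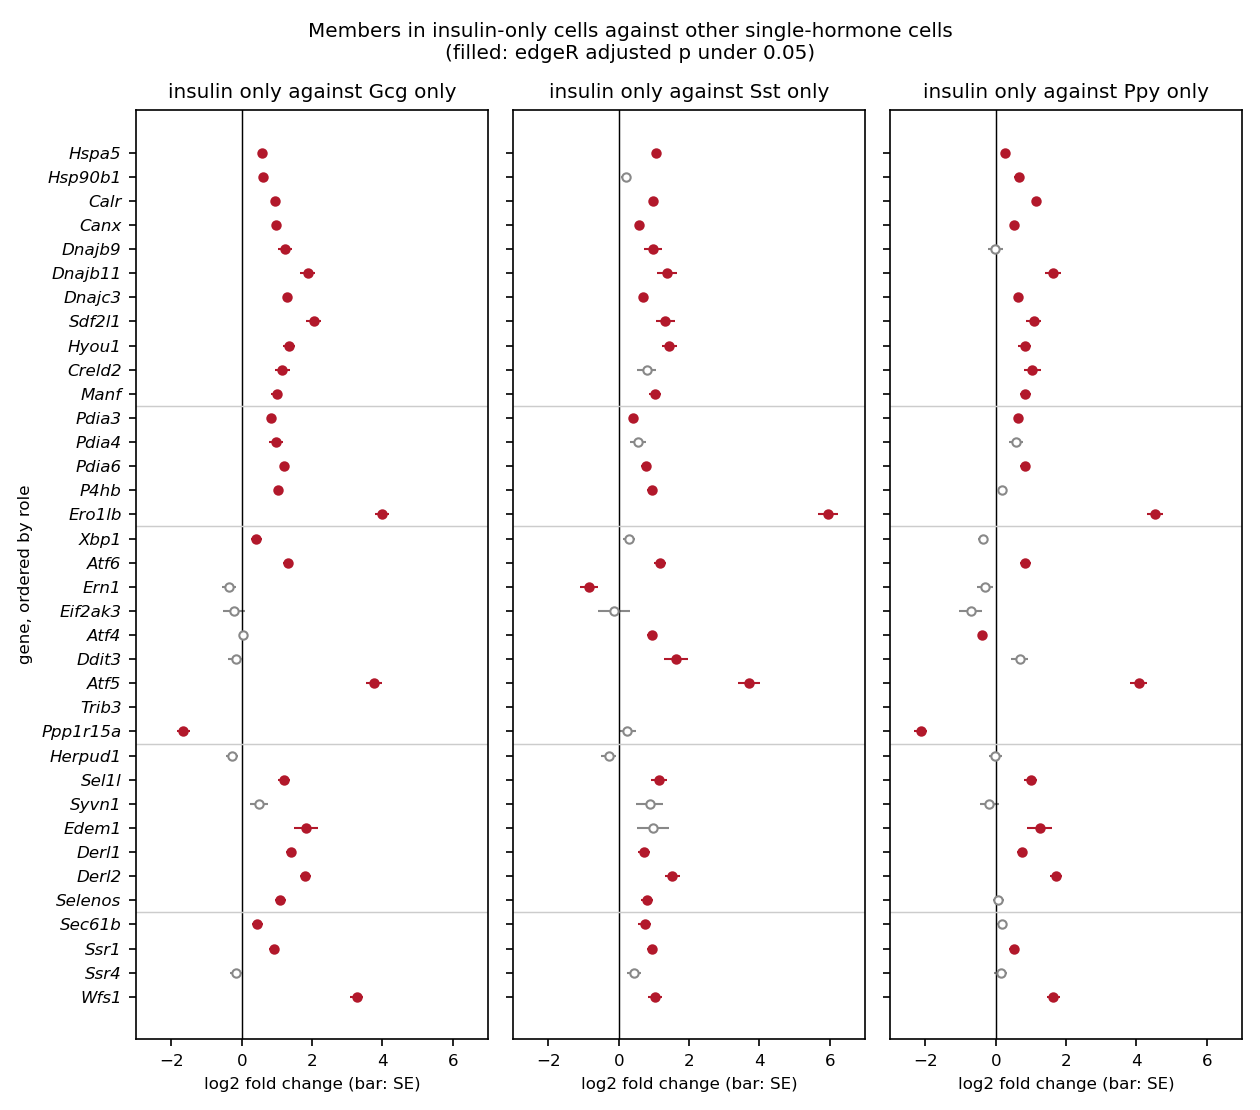
Log2 fold change of each member between insulin-only cells and Gcg-only, Sst-only or Ppy-only cells (panels, horizontal axis), with genes by role on the vertical axis. Bars are approximate standard errors from the F statistic, and filled points have an edgeR adjusted p under 0.05. Most filled points lie to the right of 0, Ero1lb and Atf5 lie furthest right, and Ppp1r15a lies left against Gcg-only and Ppy-only cells; Trib3 was not tested.

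Disulfide formation held the largest difference of the module. Ero1lb (ENSMUSG00000057069, chr13:12565874-12611396, plus strand, GRCm38) encodes ERO1-beta, the oxidase enriched in the pancreas that recharges protein disulfide isomerases. It stood at 2104 and 1852 CPM in insulin-only cells of library 1 and 2, 124 and 123 CPM in Gcg-only cells, 30.7 and 34.4 CPM in Sst-only cells and 108 and 66.9 CPM in Ppy-only cells. No other member separated insulin-only cells so widely, with log2 differences of 3.995 ± 0.21, 5.95 ± 0.28 and 4.53 ± 0.22 (adjusted p = 2.6e-10, 3.66e-10 and 2.58e-10), or 15.9-fold, 61.7-fold and 23.1-fold. In cells with insulin and another hormone Ero1lb reached 867 and 1039 CPM, between the insulin-only and the other groups. Cells with Gcg and Ppy held 149 and 143 CPM, cells with Sst and Ppy 36.5 and 43.7 CPM, and cells without a hormone 72.0 and 37.9 CPM. The Sst-only sums rest on 26 UMIs of Ero1lb in both libraries together, of which 34.6% came from 3 cells.

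The protein disulfide isomerases differed less. Pdia3 (ERp57), the partner of the lectin chaperones, was higher by 0.85, 0.41 and 0.64 than in Gcg-only, Sst-only and Ppy-only cells, and Pdia6, which also binds IRE1, by 1.21, 0.77 and 0.82. P4hb (PDI itself) was higher by 1.04 and 0.95 than in Gcg-only and Sst-only cells, while Ppy-only cells at 703 and 669 CPM lay near the 764 and 791 CPM of insulin-only cells (0.18 ± 0.13, adjusted p = 0.353). Pdia4 was called against Gcg-only cells alone (0.97), with 0.54 and 0.57 against Sst-only and Ppy-only cells (adjusted p = 0.143 and 0.0518). Without TMM scaling Pdia3 was not called against Sst-only cells (0.28, adjusted p = 0.123), and with hormone UMIs kept as well it turned to -0.31.

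The sensors and transcription factors did not move together, and their counts were 3 higher and 1 lower against Gcg-only cells, 4 and 1 against Sst-only cells, and 2 and 2 against Ppy-only cells, of 8 tested. Their median log2 differences were -0.07, 0.62 and -0.34. Atf6 and Atf5 were the only members of this role higher in all 3 comparisons.

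Ern1 (IRE1), the most conserved sensor, was scarce, at 48.7 and 54.4 CPM in insulin-only cells, 69.0 and 62.4 CPM in Gcg-only cells, 110 and 68.7 CPM in Sst-only cells and 58.1 and 69.2 CPM in Ppy-only cells. It was called lower in insulin-only than in Sst-only cells (-0.86 ± 0.25, adjusted p = 0.0311, and from 0.00022 to 0.0572 over 11 alternatives, lost in 1) and in neither other comparison (-0.35 and -0.31). Cells without a hormone had the least Ern1, at 13.0 and 20.2 CPM. Cells with Gcg and Ppy held 61.1 and 59.5 CPM, with Sst and Ppy 66.1 and 88.3 CPM, and with insulin and another hormone 57.5 and 80.2 CPM. Xbp1, whose messenger RNA IRE1 splices, stood at 223 and 220 CPM in insulin-only cells, 171 and 161 CPM in Gcg-only cells, 154 and 216 CPM in Sst-only cells and 282 and 290 CPM in Ppy-only cells. Insulin-only cells were thus higher than Gcg-only cells (0.42 ± 0.15, adjusted p = 0.0434, a call lost in 4 of 11 alternatives), with 0.29 against Sst-only (adjusted p = 0.311, or -0.43 with hormone UMIs kept and no TMM scaling) and -0.37 against Ppy-only cells (adjusted p = 0.089). Counts of transcript ends do not tell the spliced from the unspliced form of Xbp1. The remaining groups lay between 182 and 233 CPM.

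Eif2ak3 (PERK), which phosphorylates eIF2-alpha, was rare, at 25.1 and 23.9 CPM in insulin-only cells, 27.0 and 29.8 CPM in Gcg-only cells, 34.8 and 15.6 CPM in Sst-only cells and 36.4 and 43.6 CPM in Ppy-only cells. The Sst-only libraries lay on either side of the insulin-only and Gcg-only values and both Ppy-only libraries lay above them all. Eif2ak3 was called in none of the 3 comparisons (log2 -0.21, -0.12 and -0.72, with adjusted p = 0.685, 0.905 and 0.144). In cells with insulin and another hormone it read 12.6 and 33.9 CPM, and the other groups lay between 20.2 and 40.1 CPM.

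Atf4, translated when PERK is active, stood at 338 and 335 CPM in insulin-only cells and 334 and 322 CPM in Gcg-only cells, and these were not called apart (0.03 ± 0.11, adjusted p = 0.868). Sst-only cells had 178 and 172 CPM and Ppy-only cells 460 and 425 CPM. Insulin-only cells were therefore higher than the former (0.94 ± 0.13, adjusted p = 7.15e-05) and lower than the latter (-0.39 ± 0.11, adjusted p = 0.0156, or 0.0763 without the low-count filter, the highest of 11 alternatives). The highest Atf4 was in cells without a hormone, at 549 and 451 CPM, and cells with Gcg and Ppy held 375 and 370 CPM, cells with Sst and Ppy 222 and 210 CPM and cells with insulin and another hormone 243 and 223 CPM.

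Ddit3 (CHOP), the ATF4 target that favours cell death under lasting stress, was low in Sst-only cells, at 34.8 and 28.1 CPM. It stood at 93.7 and 104 CPM in insulin-only cells, 126 and 97.1 CPM in Gcg-only cells and 63.3 and 59.9 CPM in Ppy-only cells. Insulin-only cells exceeded Sst-only cells by 1.63 ± 0.35 (adjusted p = 0.00389), and the values of -0.18 against Gcg-only and 0.68 against Ppy-only cells were not called (adjusted p = 0.609 and 0.0535). Ddit3 shares its strand with a gene model of the same symbol and overlaps Mars on the other strand. Its remaining groups ran from 29.6 and 52.3 CPM in cells with Sst and Ppy to 128 and 147 CPM in cells with Gcg and Ppy, with 132 and 76.7 CPM in cells with insulin and another hormone and 78.8 and 58.1 CPM in cells without a hormone.

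Atf5 (ENSMUSG00000038539, chr7:44812256-44816658, minus strand), a factor known to protect beta cells under stress, was low outside insulin cells. It stood at 232 and 337 CPM in insulin-only cells, 20.4 and 20.6 CPM in Gcg-only cells, 18.4 and 24.99 CPM in Sst-only cells and 18.2 and 16.3 CPM in Ppy-only cells. The log2 differences were 3.77 ± 0.23, 3.71 ± 0.32 and 4.06 ± 0.25 (adjusted p = 1.78e-09, 3.6e-07 and 4.5e-09), or 13.7-fold, 13.0-fold and 16.7-fold. Library 2 held more Atf5 than library 1 in insulin-only cells, though both lay far above the other groups. Cells with insulin and another hormone had 107 and 103 CPM, cells with Gcg and Ppy 21.9 and 31.2 CPM, cells with Sst and Ppy 12.2 and 34.3 CPM and cells without a hormone 33.6 and 40.4 CPM. Atf5 overlaps Nup62 and Il4i1 on the other strand.

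Atf6 (ENSMUSG00000026663, chr1:170704674-170867771, minus strand), the sensor that is cut in the Golgi to become a transcription factor, stood at 243 and 216 CPM in insulin-only cells, 93.7 and 89.3 CPM in Gcg-only cells, 117 and 84.3 CPM in Sst-only cells and 130 and 125 CPM in Ppy-only cells. Its insulin-only sums lay above all the others, with differences of 1.32 ± 0.14, 1.17 ± 0.17 and 0.84 ± 0.14 (adjusted p = 1.87e-06, 0.000157 and 0.000349). Cells with insulin and another hormone came next, at 191 and 200 CPM, and the remaining groups lay between 87.9 and 118 CPM.

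Ppp1r15a (GADD34), the phosphatase subunit that ends the PERK signal, was called lower in insulin-only cells in 2 of the 3 comparisons. It stood at 82.9 and 91.4 CPM in insulin-only cells and 67.5 and 81.2 CPM in Sst-only cells, but at 292 and 260 CPM in Gcg-only cells and 397 and 367 CPM in Ppy-only cells. Insulin-only cells were lower than Gcg-only cells by 3.17-fold (log2 -1.66 ± 0.18, adjusted p = 2.56e-06) and lower than Ppy-only cells by 4.38-fold (-2.13 ± 0.18, adjusted p = 2.51e-07). The difference from Sst-only cells was not called (0.25 ± 0.25, adjusted p = 0.596). Cells with Gcg and Ppy held 355 and 327 CPM, with Sst and Ppy 188 and 126 CPM, with insulin and another hormone 126 and 196 CPM, and without a hormone 320 and 310 CPM. The dissociation and heat shock markers given above were also lower in insulin-only than in Gcg-only and Ppy-only cells, and their part in the Ppp1r15a difference was not tested.

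Of the 7 genes of ER-associated degradation, which sends misfolded chains back to the cytosol, 5 were higher in insulin-only than in Gcg-only cells, 4 higher than in Sst-only and 4 higher than in Ppy-only cells, and 0 were lower. Derl2, part of the retrotranslocation channel, stood at 170 and 181 CPM in insulin-only cells, 47.4 and 52.1 CPM in Gcg-only cells, 57.3 and 65.6 CPM in Sst-only cells and 59.0 and 49.4 CPM in Ppy-only cells. It was the most changed of this role in the last 2 comparisons, at 1.81 ± 0.17, 1.52 ± 0.22 and 1.71 ± 0.18 (adjusted p = 3.29e-07, 9.45e-05 and 1.9e-06). Derl2 reached 118 and 114 CPM in cells with insulin and another hormone and lay between 48.7 and 69.3 CPM in the remaining groups. It overlaps Mis12 on the other strand.

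Its relative Derl1 was higher by 1.41, 0.72 and 0.75, and Sel1l, the scaffold of the HRD1 ligase, by 1.21, 1.15 and 0.99. Edem1, which extracts mannose-trimmed glycoproteins, was higher by 1.83 and 1.25 than in Gcg-only and Ppy-only cells and by 0.98 ± 0.46 than in Sst-only cells, which was not called (adjusted p = 0.187). Selenos, a selenoprotein of the same complex, was higher by 1.10 and 0.80 than in Gcg-only and Sst-only cells, with 0.07 against Ppy-only cells (adjusted p = 0.78). Neither Syvn1, the HRD1 ligase itself (0.49, 0.88 and -0.18), nor Herpud1, which assembles the complex (-0.27, -0.29 and -0.02), was called in any of the 3. Syvn1 was rare, at 15.6 to 41.3 CPM over the single-hormone sums, and overlaps Mrpl49 on the other strand.

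In translocation and the ER membrane, Wfs1 (ENSMUSG00000039474, chr5:36966104-36989205, minus strand) led. It encodes wolframin, mutated in Wolfram syndrome. Wfs1 stood at 147 and 181 CPM in insulin-only cells, 18.1 and 15.6 CPM in Gcg-only cells, 71.6 and 90.6 CPM in Sst-only cells and 54.6 and 51.2 CPM in Ppy-only cells. The groups fell in the order insulin, Sst, Ppy and Gcg without overlap, and insulin-only cells were higher by 3.27 ± 0.19, 1.03 ± 0.20 and 1.64 ± 0.18 (adjusted p = 1.06e-09, 0.00208 and 3.06e-06 against Gcg-only, Sst-only and Ppy-only cells). Cells with Sst and Ppy held 98.3 and 105 CPM, cells with insulin and another hormone 147 and 132 CPM, cells with Gcg and Ppy 24.6 and 31.9 CPM, and cells without a hormone 15.1 and 12.1 CPM.

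Ssr1, a subunit of the translocon-associated protein complex, was higher by 0.91, 0.95 and 0.51. Sec61b, of the translocon itself, was higher by 0.45 and 0.74 than in Gcg-only and Sst-only cells (calls lost in 3 and 2 of 11 alternatives), with 0.16 against Ppy-only cells (adjusted p = 0.511). Ssr4, another subunit beside Ssr1, was called in none of the 3, with -0.17 ± 0.17, 0.44 ± 0.19 and 0.14 ± 0.17 (adjusted p = 0.535, 0.154 and 0.65).

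Genes of the same pathways outside the module were read from 5 further lists. Against Gcg-only cells, 20 of 23 translocation and glycosylation genes were higher in insulin-only cells and 0 lower, among them Spcs3 of the signal peptidase (1.71) and Srpr, the signal recognition particle receptor (1.41). Of 19 folding genes 12 were higher, led by the prolyl isomerase Fkbp11 (2.77) and by Hspa13 (1.85), and 1 was lower, Sdf4 (-0.66). Of 15 degradation genes 10 were higher and 0 lower, led by Edem2 (1.44) and Ubxn4 (0.93). The integrated stress response genes, which lie downstream of ATF4, gave 5 higher and 1 lower of 14 tested, with Nupr1 (6.26 ± 0.90) and Vldlr (4.59) highest and Cebpb (-1.45) lower. Nupr1 rests on few UMIs, at 15.7 and 57.4 CPM in insulin-only cells and 0 and 0.709 CPM in Gcg-only cells. Of 10 regulators only Creb3l1 was called (3.96).

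The same lists were counted in the other 2 comparisons. Against Sst-only cells 16 of 23 translocation and glycosylation genes, 5 of 19 folding, 8 of 15 degradation, 6 of 14 stress response genes and 0 of 10 regulators were higher, and 0 were lower in any list. The regulators had 0 genes at an unadjusted p under 0.05 and 0 by DESeq2 there, measures for which the share of all genes was not counted. Against Ppy-only cells the counts were 8 of 23, 7 of 19 with 1 lower, 3 of 15, 4 of 14 with 1 lower, and 0 of 10 regulators higher with 2 lower.

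Members with and without the ER stress response element printed above were counted side by side, with the second form included. Against Gcg-only cells 9 of 11 members with an element were higher (median log2 0.97) and 14 of 20 tested members without (median 0.94). Against Sst-only cells the counts were 7 of 11 (median 0.79) and 13 of 20 (median 0.94), and against Ppy-only cells 9 of 11 (median 0.65) and 8 of 20 (median 0.34). The element was thus present in members that differed widely, such as Ero1lb, and in Herpud1 and Syvn1, which were not called, and Atf5 and Wfs1 had windows without it.

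Gcg-only and Sst-only cells differed in 13 members, 6 higher and 7 lower in Gcg-only cells (median log2 -0.13). Of all genes 5.94% were higher and 6.66% lower, which are the background for 6 and 7 of 35. Ero1lb (1.95), Ppp1r15a (1.91), Ddit3 (1.80), Atf4 (0.91), Ssr4 (0.61) and Hspa5 (0.48) were higher in Gcg-only cells. Wfs1 (-2.24), Derl1 (-0.69), Dnajc3 (-0.58), Pdia6 (-0.45), Pdia3 (-0.43), Hsp90b1 (-0.42) and Canx (-0.38) were lower. Many of these calls were close to the threshold. Ssr4 lost its call in 5 of 11 alternatives, with adjusted p from 8.02e-05 to 0.471. Without the low-count filter Canx, Derl1, Pdia3 and Pdia6 were not called (adjusted p = 0.0955, 0.0848, 0.0892 and 0.132), at a hormone threshold of 0.5% Derl1, Hsp90b1, Pdia3 and Pdia6 were not (0.117, 0.118, 0.242 and 0.105), and with hormone UMIs kept and no TMM scaling Hspa5 was not (0.527). Atf4, Ddit3 and Ppp1r15a were thus higher in Gcg-only cells, whereas of the 7 chaperone and disulfide genes called 5 were higher in Sst-only cells. Of the 14 tested integrated stress response genes outside the module, 2 were higher and 2 lower in Gcg-only cells. Dissociation and heat shock markers summed to 15810 and 14930 CPM in Gcg-only and 11720 and 11690 CPM in Sst-only cells, and their part was not tested. With hormone UMIs kept and no TMM scaling the members split 4 higher and 12 lower, with a median over all genes of -0.32.

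Cells with Ppy beside a main hormone were set against cells with that hormone alone. Between cells with Gcg and Ppy and Gcg-only cells 0 of 35 members were called, where 0.0344% of all genes were, by edgeR. At an unadjusted p under 0.05 there were 8 members, and DESeq2 called 1. The share of all genes was not counted at an unadjusted p or by DESeq2, here or for cells with Sst and Ppy. Those counts therefore have no background. Of the 35, 34 had a positive log2 difference (median 0.27, against -0.0015 for all genes), with Wfs1 at 0.75 ± 0.24 (adjusted p = 0.612) and Hspa5 at 0.33 ± 0.09 (adjusted p = 0.432). Between cells with Sst and Ppy and Sst-only cells 0 members were called by edgeR and 0 by DESeq2, where 0.0138% of all genes were called by edgeR, and 5 members passed an unadjusted p under 0.05. The widest difference was Ppp1r15a at 1.10 ± 0.25 (adjusted p = 0.597), and the median was 0.09, against 0.01 for all genes.

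Cells without a hormone, a mixed group with endothelial, leukocyte, macrophage, stellate and ductal markers, were set against the mean of the 4 single-hormone groups. Of the members 18 were higher in the hormone cells and 5 lower (median log2 0.34, against -0.12 for all genes), where 24.4% of all genes were higher and 35.2% lower. With hormone UMIs kept and no TMM scaling the median of all genes moved to -0.47 and the members split 12 higher and 11 lower. Wfs1 (2.10), Ern1 (1.97), Ero1lb (1.57), Hyou1 (1.34), Ssr4 (1.19), Dnajc3 (1.06), Dnajb9 (0.87) and Pdia3 (0.84) were the most raised in hormone cells. The others higher were Selenos (0.73), Manf (0.71), Hsp90b1 (0.67), Ssr1 (0.62), Sec61b (0.61), Hspa5 (0.52), Creld2 (0.48), Pdia6 (0.47), Canx (0.38) and Atf6 (0.34), of which Creld2 lost its call in 4 of 11 alternatives (adjusted p from 9.73e-06 to 0.561). Edem1 (-1.96), Dnajb11 (-1.07), Ppp1r15a (-0.98), Atf4 (-0.73) and Sel1l (-0.48) were higher in the cells without a hormone.

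A few of those cells weighed heavily on the module in library 1. In library 1, the 3 cells with most plasma cell marker UMIs held 98.5% of the Jchain UMIs of cells without a hormone, and with them 57.8% of Edem1, 46.6% of Creld2, 45.0% of Xbp1, 41.7% of Manf and 41.5% of Sdf2l1. The members made up 1.43% to 8.02% of UMIs other than hormones in these 3 cells and at most 1.75% in the other 88. The lowest of the 3 shares, 1.43%, was that of the cell with most plasma cell marker UMIs. Library 2 held 28 Jchain UMIs in its 3 highest cells, where 5.33% of Edem1 lay. There the members made up 0.588% to 1.225% in these 3 cells and up to 2.60% in the other 89. With 3 such cells removed from each library, 20 members were higher and 5 lower, Edem1 moved from -1.96 to -1.28 (adjusted p = 1.86e-05) and Creld2 from 0.48 to 1.02.

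Within a group, cells were split into tertiles of their hormone share to follow the members with hormone load. The Sst-only group had fewer than 10 cells in a tertile of library 2 and was left out. Counts were tested over 12021 genes in 18 sums. In insulin-only cells 5 members were higher in the highest than in the lowest tertile and 1 was lower (median log2 0.12), where 4.18% of all genes were higher and 3.35% lower. Without TMM scaling the split was 4 and 2, and with hormone UMIs kept as well it was 0 and 22, with a median over all genes of -0.69. The rises below are therefore relative to transcripts other than hormones.

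Atf5 rose most, from 126 and 271 CPM in the lowest tertile of library 1 and 2 to 365 and 477 CPM in the highest (log2 1.12 ± 0.19, adjusted p = 6.87e-05). Both highest sums lay above both lowest, although library 1 started much lower. Ero1lb rose from 1522 and 1428 CPM to 2692 and 2000 CPM (0.65 ± 0.13, adjusted p = 0.0007). Calr, the calcium-binding lectin chaperone, rose from 1084 and 1138 CPM to 1584 and 1905 CPM (0.64 ± 0.12, adjusted p = 0.000256). Ssr4 (0.57 ± 0.15) and P4hb (0.41 ± 0.12) were the other members higher (adjusted p = 0.0109 and 0.0347). P4hb lost its call with its direction kept in 5 of 10 alternatives. In another, with hormone UMIs kept and no TMM scaling, its direction turned and it was not called either (adjusted p = 0.137). With hormone UMIs kept and no TMM scaling Atf5 read 0.48 (adjusted p = 0.0503) and Ero1lb 0.0085 (adjusted p = 0.969), while Calr, P4hb and Ssr4 read -0.0095, -0.24 and -0.074. Atf6 was the member that fell, from 267 and 253 CPM to 191 and 129 CPM (-0.70 ± 0.18, adjusted p = 0.00975), while Hspa5 read 3903 and 3967 CPM in the lowest and 3935 and 3820 CPM in the highest tertile. The call of Atf6 was lost where cells were split at the median (adjusted p = 0.0837) and with tertiles balanced for depth (adjusted p = 0.156), and over 10 alternatives its adjusted p ran from 1.21e-06 to 0.156.

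**Figure D4:**
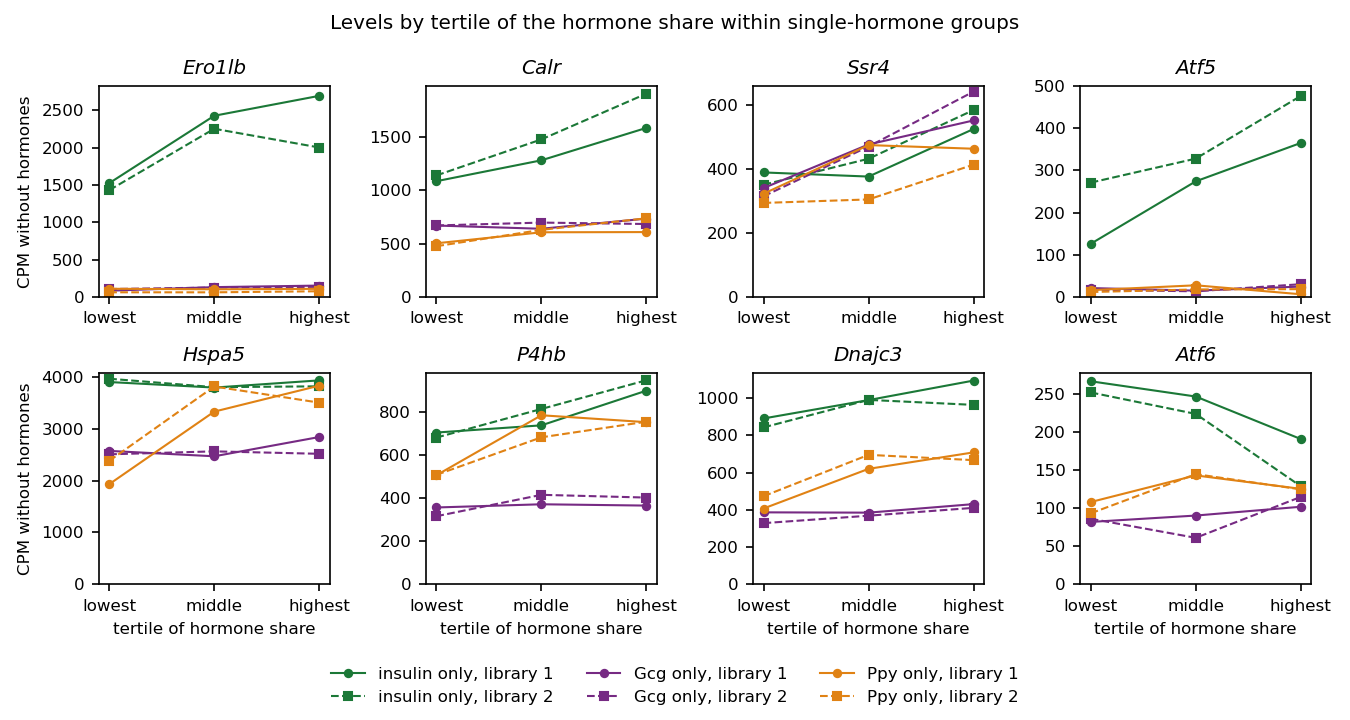
Level of 8 members (CPM of UMIs other than hormones, vertical axis) in the lowest, middle and highest tertile of the hormone share (horizontal axis), for insulin-only, Gcg-only and Ppy-only cells (colour) and each library (line and marker). In insulin-only cells Atf5 climbs and Atf6 falls in both libraries, and in Ppy-only cells Hspa5 is higher in the highest tertile (3833 and 3505 CPM) than in the lowest (1931 and 2381 CPM), with 3332 and 3817 CPM in the middle.

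Other measures moved with the insulin tertiles. The median cell had 15793 and 13480 UMIs other than hormones in the lowest tertile of library 1 and 2 and 8971 and 7288 in the highest. Its mitochondrial share was 0.589% and 0.533% in the lowest and 0.162% and 0.159% in the highest, dissociation and heat shock markers summed to 6474 and 6045 CPM and 3488 and 2838 CPM, and leukocyte markers to 245 and 320 CPM and 7.41 and 20.04 CPM. Beta cell markers summed to 48220 and 51780 CPM in the lowest tertile and 62950 and 62710 CPM in the highest. Alpha cell markers summed to 1320 and 1402 CPM and 1854 and 1858 CPM, and delta cell markers to 466 and 674 CPM and 158.5 and 104 CPM. Endothelial markers summed to 254 and 31.7 CPM and 35.6 and 25.5 CPM. The part of these measures in the differences was not tested.

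In Gcg-only cells 1 member was higher in the highest tertile, where 0.158% of all genes were. Ssr4 rose from 340 and 314 CPM to 552 and 642 CPM (0.87 ± 0.15, adjusted p = 0.000672), with both libraries apart. Split at the median its adjusted p was 0.056, the highest of 10 alternatives. The 6 alpha cell markers summed to 31270 and 33720 CPM in the lowest Gcg tertile and to 58200 and 56330 CPM in the highest. Endothelial markers summed to 98.0 and 411 CPM and to 27.3 and 36.8 CPM, and the part of these markers was not tested. In Ppy-only cells 3 members were higher, where 0.316% of all genes were, and 32 of 35 had a positive difference (median 0.33, against -0.0005 for all genes). Hspa5 rose from 1931 and 2381 CPM to 3833 and 3505 CPM (0.76 ± 0.12, adjusted p = 4.06e-05). Dnajc3 rose from 407 and 473 CPM to 708 and 667 CPM (0.63 ± 0.14, adjusted p = 0.0124), and P4hb from 507 and 509 CPM to 754 and 757 CPM (0.57 ± 0.14, adjusted p = 0.0243). Split at the median Dnajc3 and P4hb lost their calls (adjusted p = 0.292 and 0.546). With hormone UMIs kept and no TMM scaling the members split 1 higher and 1 lower in Gcg-only cells and 0 higher and 2 lower in Ppy-only cells. The median over all genes was then -0.30 and -0.42 in these groups in turn.

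The lowest Ppy tertile also differed in its markers. Beta cell markers summed to 13050 and 5109 CPM there and to 756 and 703 CPM in the highest tertile, and leukocyte markers to 211 and 686 CPM and 9.29 and 13.5 CPM. With the 5% of cells with most non-endocrine markers removed, 2 of the 3 members were called, and P4hb was not (0.52, adjusted p = 0.056). The part of the beta cell markers was not tested. Each Ppy tertile held 18 to 23 cells a library.

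Across single cells, the summed share of the members had a Spearman correlation with the hormone share of 0.21 and 0.24 in insulin-only cells (n = 182 and 190 cells), 0.19 and 0.17 in Gcg-only cells, 0.11 and 0.32 in Sst-only cells and 0.62 and 0.36 in Ppy-only cells. These values are a description, since the cells of a library share its preparation. In insulin-only cells the UMIs other than hormones correlated with the hormone share at -0.47 and -0.53 and the mitochondrial share at -0.73 and -0.73.

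The change over tertiles was compared between insulin-only and Gcg-only cells in 1 interaction test. Of the 35 members 1 was called, lower in the difference, where 0.74% of all genes were. It was Atf6, which fell in insulin-only cells and read 82.1 and 86.3 CPM in the lowest and 102 and 115 CPM in the highest Gcg tertile (difference -1.06 ± 0.27, adjusted p = 0.0265). With a split at the median or depth-balanced tertiles the adjusted p was 0.105 and 0.283. Ssr4, higher in both groups, was not called in this test.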

How the data were processed

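The authors deposited 1 table of whole-number counts (deduplicated UMIs per gene and cell barcode) per library. According to the methods, the Cytonaut software chose barcodes above a knee in depth with UMI-tools, aligned reads to exons of GRCm38 with Ensembl annotation, and deduplicated and assigned them; use of strand is not given in the sources used here. Depth per library was 15931154 and 17440292 UMIs. Cells with at least 200 genes and at most 20% mitochondrial UMIs were kept, which removed 0 cells. No doublet caller was run, and cells with several hormones were kept as groups of their own.

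Ins1, Ins2, Gcg, Sst and Ppy were removed, and counts were summed per library and cell group (at least 10 cells) and tested in R 4.3.3 with edgeR 4.0.16 (TMM, filterByExpr, glmQLFit, glmQLFTest, two-sided, library number as block, Benjamini-Hochberg over all genes, threshold 0.05). The group fit had 16 sums of 298300 to 2823605 UMIs and 7 residual degrees of freedom, and the tertile fit 18 sums of 322935 to 1124217 UMIs and 8. Levels of members are CPM per 1000000 TMM-scaled UMIs, and sums over marker lists are CPM without TMM. Scripts were tested on simulated data. Both libraries give a sum for every group from the same preparation, so the number pairs the sums by design.

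The members, lists and cell groups were chosen with earlier results of these data known. All members were named. Values for every group were given for Xbp1, Atf6, Ern1, Eif2ak3, Atf4 and Ddit3 and for the 4 called members with the largest changes in each insulin-only and tertile comparison, and wider lists gave the 2 largest called changes in each direction. Values of further members, and of Hspa5 over groups, were added after they had been seen.

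Alternatives were DESeq2 1.42.0, its size factors, no TMM, hormone UMIs kept, no low-count filter, no replicate block, leaving out a library, hormone thresholds of 0.5% and 5%, splits at the median, depth-balanced tertiles, and removal of the 5% of cells with most non-endocrine markers. Hormone UMIs kept without TMM, no TMM, and removal of 3 plasma marker cells were chosen after seeing the data. Promoter windows were RefSeq's, and gene overlaps came from GENCODE on GRCm38.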

Additional observations from a re-analysis of the deposited data

Results flagged for a closer look

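For Atf6, the sensor that becomes a transcription factor, the change with hormone share differed between insulin-only and Gcg-only cells, by a test of the difference itself (an interaction term). Atf6 was called over the insulin tertiles (-0.70) and not over the Gcg tertiles (0.36, adjusted p = 0.768). The tertile effect in insulin-only cells minus that in Gcg-only cells was -1.06 on the log2 scale (edgeR adjusted p = 0.0265). The direction held in both libraries taken alone, at -0.79 without library 2 and -1.43 without library 1. The call was lost with a split at the median in place of tertiles (-0.71, adjusted p = 0.105) and with tertiles balanced for depth (-0.73, adjusted p = 0.283). UMIs other than hormones fell with hormone share in insulin-only cells, and their part in the difference was not tested.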

How the results depend on the processing

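Of 116 counts of called members over 11 comparisons and their alternatives, 103 stayed within 1.5 times the main count and 13 did not. Each count adds members called higher and members called lower. A count can therefore stay within this range while its split changes. With hormone UMIs kept and no TMM scaling this was so for Gcg-only against Sst-only cells, cells without a hormone and the Ppy tertiles, whose splits are given above. With hormone UMIs kept and no TMM scaling the counts were 8 for insulin-only against Sst-only cells, 22 for the insulin tertiles, 2 for the Gcg tertiles and 2 for the interaction. A hormone threshold of 0.5% gave 8 for Gcg-only against Sst-only cells. Without the low-count filter 1 member was called for cells with Gcg and Ppy and 2 for cells with Sst and Ppy, and DESeq2 called 1 for the former and 2 in the interaction. Splits at the median gave 0 in Gcg-only cells, 1 in Ppy-only cells and 0 in the interaction, and depth-balanced tertiles 0 in the interaction. The cause was not tested.

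Directions turned with hormone UMIs kept and no TMM scaling for Atf4 against Gcg-only cells (-0.31), for Canx (-0.13), Dnajc3 (-0.021), Pdia3 (-0.31) and Xbp1 (-0.43) against Sst-only cells, and for Calr (-0.0095), P4hb (-0.24) and Ssr4 (-0.074) over the insulin tertiles. Atf4 against Gcg-only cells also turned at a threshold of 5% (-0.041). With a library left out, Ddit3 against Gcg-only cells ranged from -0.405 to 0.15 and Eif2ak3 against Sst-only cells from -0.384 to 0.76, neither of them called. Leaving out a library gave fold changes with no test, and of 246 such values of called members 0 turned. Of these, 148 moved by less than 1 SD of the 2 single-library values and 98 by more. That SD comes from the same 2 values, so this split does not measure how far apart the libraries were.

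The fit with no replicate block moved no count of members by more than 1 (20 higher and 2 lower against Ppy-only cells, 17 and 5 against cells without a hormone). Cells with Sst and Ppy at a 5% threshold were too few for a value. Sst-only sums, from 35 and 23 cells, are the shallowest. Single tested members there rest on as few as 15 UMIs, and Trib3, which was not tested, had 0 UMIs there.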
